A study of Mus musculus with 12 samples.

Results

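Matricellular proteins are secreted into the extracellular matrix but serve mainly as signals between cells and matrix rather than as load-bearing fibres. Together with fibronectin, which cells use as a provisional scaffold, and versican, a large proteoglycan that binds hyaluronan, they are typical products of activated fibroblasts and of the contractile myofibroblasts of healing or scarring lung, although macrophages, platelets and endothelium make some of them as well. The 9 genes described here were Postn, Tnc, Cthrc1, Sparc, Thbs1 and Thbs2 (matricellular proteins), Fn1 (fibronectin), Vcan (versican) and Fap (a membrane protease of activated fibroblasts). They were taken by gene symbol from a table of 54532 mouse genes. Each symbol matched 1 gene, and all 9 were among the 16185 genes with enough counts to be tested.

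RNA of whole lung was sequenced in 6 samples with acute lung injury (ALI) and 6 control samples. Per the series design, the injury followed drowning in seawater, and its title also speaks of an imbalance of intestinal bacteria. The labels give neither strain, age nor sex, no dose, and no interval between injury and collection, so whether the lungs were taken in an early or a late phase is not known here. Nor do they state whether each sample is its own animal. The p-values therefore speak of sample-to-sample spread, part or all of which could be technical. Samples held 16527017 to 19706494 counts in ALI and 15707937 to 18216324 counts in control. Levels are given as CPM, counts scaled to a library of 1000000, changes as log2 fold change of ALI over control, and a gene is said to have risen or fallen where its adjusted p in edgeR's quasi-likelihood test was under 0.05. In bulk tissue, more RNA of a gene per cell and more cells that make it cannot be told apart.

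Control 5 stood apart from the other controls. The summed level of 7 adipose markers in it was 5007 CPM, against 6.40 to 32.7 CPM in the other controls, and it also had the lowest level of Fn1, Sparc, Postn, Vcan and Thbs2 among the controls. In ALI the adipose sum ran from 10.3 to 667 CPM, with the highest value in ALI 2. Some of the results below are given both with and without these samples. Lung epithelial markers were abundant in every sample (summed level 14736 to 20587 CPM in ALI, against 27212 to 43977 CPM in controls), as the tissue label says.

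The members did not act as a block. Of the 9, 6 rose in ALI (Vcan, Tnc, Fn1, Thbs2, Fap and Thbs1), none fell, and Sparc, Cthrc1 and Postn did not pass the test. Over all genes tested, 36.6% passed in either direction, 18.9% higher and 17.7% lower in ALI, and the median log2 fold change of all genes was -0.06. In 4 members (Vcan, Tnc, Fn1 and Thbs2) the lowest ALI value was higher than the highest control value, which held for 13.1% of all genes tested. Without control 5 and ALI 2 the count was again 6 higher and 0 lower. In that fit 16232 genes were tested, and over all genes more rose and more fell than with all samples. The shares of 36.6%, 18.9% and 17.7% belong to the fit with all samples and are not its background. Over 19 alternative fits, that one among them, 2639 to 3791 genes rose and 2183 to 3432 fell.

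**Figure D1:**
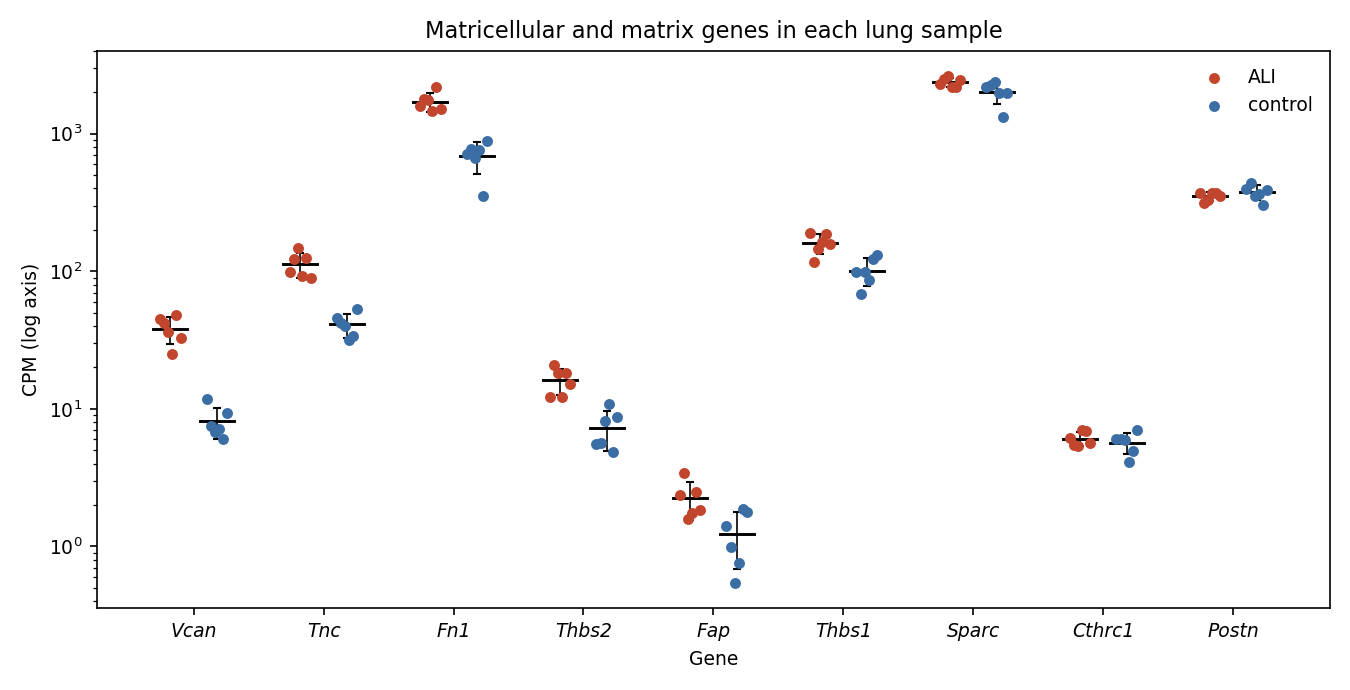
CPM (log axis) of the 9 genes in each sample, with ALI samples in red left of control samples in blue for each gene; the bar is the group mean and the whisker its SD (n = 6 each). The ALI points of Vcan, Tnc, Fn1 and Thbs2 all lie above the control points, while those of Postn and Cthrc1 lie within or near the control range.

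The start regions of some members are shown to set the sequences of genes that rose beside that of a gene that did not pass, as a description only. RefSeq's promoter windows on GRCm38.p6, which run from 250 bases before to 50 bases after a start site, held 7 windows for 5 of the members (Postn, Tnc, Sparc, Vcan and Thbs2). Shown are the windows of 3 members that rose without overlap (Tnc, Vcan, Thbs2) and of Postn, which did not pass the test, each on the gene's own strand. Capitals mark matches on either strand to 5 motifs. The motif of the TEAD factors was searched as CATTCC. The box bound by SMAD proteins, which carry the TGF-beta signal, was searched as CAGACA. The site of the AP-1 factors was searched as TGANTCA, where N is any base. The TATA box was searched as TATAAA, and the CArG box of serum response factor was searched by its usual consensus.
Tnc, chr4:64046966-64047265, minus strand: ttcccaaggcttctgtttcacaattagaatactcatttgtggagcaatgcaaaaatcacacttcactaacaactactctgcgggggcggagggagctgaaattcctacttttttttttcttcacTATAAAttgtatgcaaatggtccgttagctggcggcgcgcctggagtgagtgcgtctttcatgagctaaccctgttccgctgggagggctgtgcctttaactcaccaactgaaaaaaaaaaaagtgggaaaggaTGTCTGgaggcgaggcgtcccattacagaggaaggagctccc
Vcan, chr13:89742463-89742762, minus strand: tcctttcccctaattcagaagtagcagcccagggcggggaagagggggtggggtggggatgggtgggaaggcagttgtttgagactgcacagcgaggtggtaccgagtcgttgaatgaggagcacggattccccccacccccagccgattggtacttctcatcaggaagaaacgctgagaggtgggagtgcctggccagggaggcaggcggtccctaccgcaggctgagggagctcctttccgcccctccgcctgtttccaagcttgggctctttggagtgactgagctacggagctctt
Thbs2, chr17:14694213-14694512, minus strand: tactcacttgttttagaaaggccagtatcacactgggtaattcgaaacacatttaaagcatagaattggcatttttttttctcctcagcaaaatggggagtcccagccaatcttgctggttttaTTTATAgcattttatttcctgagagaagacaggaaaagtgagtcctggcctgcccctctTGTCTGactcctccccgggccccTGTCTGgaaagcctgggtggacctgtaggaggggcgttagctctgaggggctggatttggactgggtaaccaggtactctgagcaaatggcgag
Postn, chr3:54360857-54361156, plus strand: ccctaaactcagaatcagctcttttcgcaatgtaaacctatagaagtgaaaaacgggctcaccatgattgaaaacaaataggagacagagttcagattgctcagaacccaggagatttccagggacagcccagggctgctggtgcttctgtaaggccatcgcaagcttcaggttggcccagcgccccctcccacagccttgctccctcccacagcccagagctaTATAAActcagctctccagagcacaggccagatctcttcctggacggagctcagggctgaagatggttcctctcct

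The match in the window of Postn was a TATAAA whose first base lay at -26 from the start site. The Tnc window had TATAAA at -126 and the reverse of CAGACA at 8, and the Thbs2 window had the reverse of CAGACA at -67 and -44 and the reverse of TATAAA at -126. The Vcan window held none of the letters searched. CAGACA stood in 4 of the 7 windows, those of Tnc (both of its windows, which overlap), Thbs2 and Sparc, and in 6913 of all 32851 windows. TATAAA stood in 4 of the 7, those of Postn, Thbs2 and Tnc (both windows, which share the same match), against 13.6% of all windows. The start site of the Sparc window lay at 3103 bases from the GENCODE 5' end, counted along the gene. That of the Postn window not shown lay at -1842 bases. The TEAD, AP-1 and CArG letters were in none of the 7, against 14.7%, 7.81% and 1.63% of all windows. No matches overlapped in the windows shown. The windows had a GC content of 61.0% (Vcan), 53.0% (Postn), 48.3% (Thbs2) and 47.3% (Tnc), where the median of all windows was 52.7%. The matches describe the letters of these windows only, and TATAAA stood in windows of members that rose and of Postn.

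Versican, whose long side chains make hyaluronan-rich matrix swell and hold water, changed most. Vcan (ENSMUSG00000021614, chromosome 13, 89655312 to 89742509 on GRCm38, minus strand) had a lowest, median and highest level of 25.2, 39.1 and 48.1 CPM in ALI samples, against 6.07, 7.30 and 11.8 CPM in control samples. The lowest ALI sample, ALI 4, was above the highest control, control 1, so the groups did not overlap. The log2 fold change was 2.24 ± 0.19 (SE), a 4.71-fold rise (95% interval 3.56 to 6.23, edgeR adjusted p = 5.48e-07). Leaving out any 1 sample gave log2 changes between 2.16 and 2.37.

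Tenascin-C, an anti-adhesive glycoprotein that adult tissue makes at sites of injury, came next. Tnc (ENSMUSG00000028364, chromosome 4, 63959785 to 64047015, minus strand) was at 89.3, 111 and 149 CPM (lowest, median and highest) in ALI, against 31.5, 40.9 and 53.5 CPM in control. All 6 ALI samples were above all 6 controls, with ALI 3 highest. It rose 2.75-fold (95% interval 2.19 to 3.45, edgeR adjusted p = 4.31e-06).

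Fibronectin, the integrin-binding glycoprotein of early wound matrix and also of plasma, had the highest level of the members that rose. Fn1 (ENSMUSG00000026193, chromosome 1, 71585520 to 71653200, minus strand) had 1453, 1666 and 2189 CPM in ALI, against 350, 736 and 892 CPM in control. The lowest control was control 5, and the other controls lay between 663 and 892 CPM. The rise was 2.47-fold (95% interval 1.88 to 3.26, edgeR adjusted p = 7.22e-05), with a log2 change of 1.31 with all samples and 1.17 without control 5. Counts per gene do not part the splice forms of Fn1, Tnc or Vcan, so fibronectin with the extra domains made by myofibroblasts could not be separated from other fibronectin. Liver is the main source of plasma fibronectin. The summed level of 6 liver genes was 0.419 to 2.75 CPM in ALI and 0.619 to 1.56 CPM in control, with Fgb at 0 in all samples. RNA of lung does not measure fibronectin protein that arrives from plasma, and the source of the Fn1 RNA was not tested.

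The thrombospondins are trimeric glycoproteins that bind CD47 and CD36 on cells and restrain the growth of vessels, and thrombospondin-1 can also activate latent TGF-beta. Thbs2 (ENSMUSG00000023885, chromosome 17, 14665500 to 14694235, minus strand) was at 12.2, 16.7 and 20.7 CPM in ALI, against 4.87, 6.92 and 10.8 CPM in control, with no overlap between groups. It rose 2.20-fold (95% interval 1.62 to 3.01, edgeR adjusted p = 0.000606). Thbs1 (ENSMUSG00000040152, chromosome 2, 118111876 to 118127133, plus strand) was at 118, 161 and 189 CPM in ALI, against 68.2, 99.0 and 130 CPM in control. ALI 2 fell inside the control range, and the other 5 ALI samples were above the highest control. Thbs1 rose 1.58-fold (95% interval 1.26 to 1.99, edgeR adjusted p = 0.00367).

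The smaller rise of Thbs1 than of Thbs2 was not beyond the spread between samples. The log2 ratio of Thbs1 over Thbs2 was 3.31 ± 0.52 in ALI and 3.80 ± 0.56 in control (SD, n = 6 each), a difference of -0.49 (two-sided exact permutation p = 0.147). Platelets carry thrombospondin-1 protein and RNA. Of 7 tested platelet markers, 4 fell and none rose, and Gp1bb was at 0 in all samples. The summed level of all 8 listed was 36.0 to 49.7 CPM in ALI and 53.8 to 82.7 CPM in control. The part of platelets or of any other cells in the level of Thbs1 was not tested.

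Fap, a serine protease of the cell surface that cleaves collagen fragments, was the rarest member. Fap (ENSMUSG00000000392, chromosome 2, 62500943 to 62574075, minus strand) had 29 to 61 counts per sample in ALI and 10 to 32 in control. Its levels were 1.58, 2.11 and 3.44 CPM in ALI, against 0.546, 1.20 and 1.87 CPM in control, and 3 ALI samples lay inside the control range. The rise was 1.83-fold with a wide interval (95% interval 1.15 to 2.93, edgeR adjusted p = 0.0432). The call was lost when any 1 of 8 samples was left out (control 1, 2, 3 or 4, or ALI 1, 2, 5 or 6; adjusted p up to 0.106, without ALI 2) and with no filter on low counts (adjusted p = 0.0626), and it held without both control 5 and ALI 2 (adjusted p = 0.0412). Dpp4, the closest relative of Fap and an exopeptidase of epithelium and lymphocytes, fell instead, to 107 ± 9.43 CPM in ALI against 156 ± 17.8 CPM in control (SD, n = 6 each, edgeR adjusted p = 0.000317).

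Periostin, which aids the cross-linking of collagen and marks fibroblasts in fibrotic lung and airway disease, was at about the same level in both groups. Postn (ENSMUSG00000027750, chromosome 3, 54361109 to 54391037, plus strand) had 311, 361 and 370 CPM in ALI, against 302, 379 and 437 CPM in control. All 6 ALI samples fell within the control range. The fold change was 0.936 (95% interval 0.816 to 1.07, edgeR adjusted p = 0.447), so the interval leaves out any rise of the size seen in Vcan, Tnc or Fn1. Without control 5 the log2 change was -0.15 (adjusted p = 0.109).

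Cthrc1, a secreted protein that marks the collagen-rich fibroblast state described in fibrotic mouse lung, had a fold change near 1 as well. Cthrc1 (ENSMUSG00000054196, chromosome 15, 39076932 to 39087121, plus strand) was at 5.37, 5.86 and 7.01 CPM in ALI, against 4.11, 5.98 and 6.97 CPM in control, from 96 to 117 counts per sample in ALI and 66 to 125 in control. The fold change was 1.07 (95% interval 0.858 to 1.34, edgeR adjusted p = 0.638).

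Sparc encodes a collagen-binding glycoprotein that fibroblasts and lung endothelium both make. It (ENSMUSG00000018593, chromosome 11, 55394500 to 55423183, minus strand) was at 2183, 2391 and 2626 CPM in ALI, against 1332, 2083 and 2395 CPM in control. The lowest control was control 5, and 3 of the 6 ALI samples were above the highest control. The fold change was 1.18 (95% interval 0.974 to 1.43, edgeR adjusted p = 0.168), and the log2 change was 0.24 with all samples and 0.14 without control 5. Of 8 endothelial markers all 8 fell, with a summed level of 2487 to 3376 CPM in ALI and 4111 to 6192 CPM in control, and their part in the level of Sparc was not tested.

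**Figure D2:**
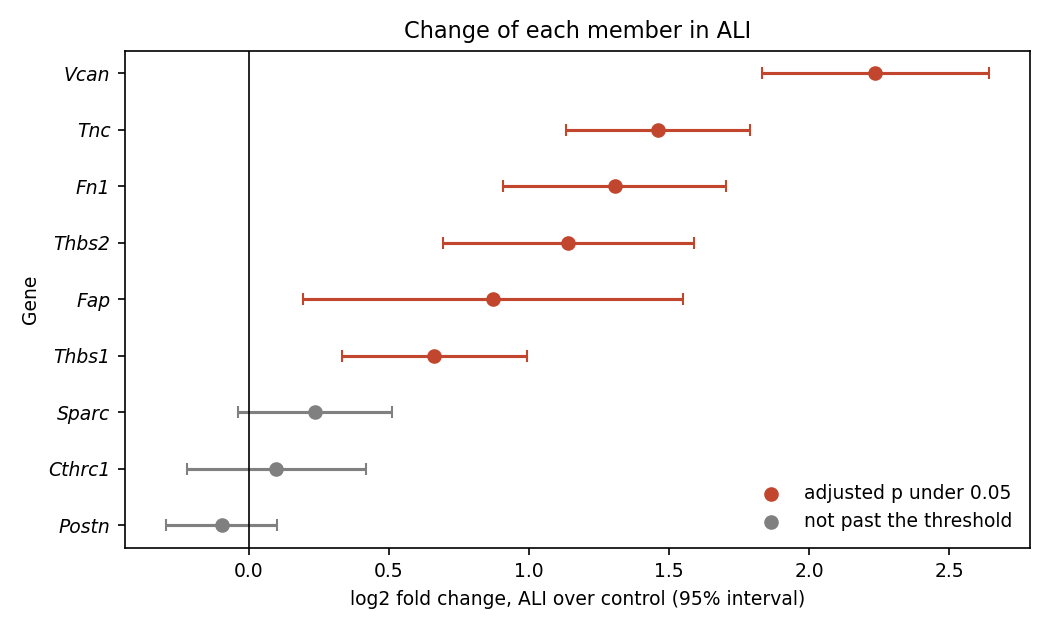
Log2 fold change of ALI over control for each of the 9 genes, as a point with its 95% interval from the edgeR fit (6 samples a group); red points passed the adjusted p of 0.05 and grey points did not. Vcan is highest at 2.24, and the intervals of Sparc, Cthrc1 and Postn include 0.

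Per length of gene, Sparc was by far the most abundant member in both groups. As RPKM, which is CPM per kilobase of gene, it had 629 ± 46.8 in ALI and 534 ± 98.7 in control, and Fn1 followed with 146 ± 22.9 in ALI and 59.2 ± 15.7 in control (SD, n = 6 each). The order of mean RPKM in ALI was Sparc, Fn1, Postn, Thbs1, Tnc, Cthrc1, Vcan, Thbs2 and Fap. In that order the sample ranges of Vcan (1.74 to 3.33 RPKM) and Thbs2 (1.74 to 2.95 RPKM) overlapped in ALI, and those of the other neighbours did not.

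In control the order differed by the exchange of Vcan and Thbs2, with Thbs2 at 1.04 ± 0.332 RPKM and Vcan at 0.560 ± 0.146 RPKM, whose ranges overlapped too. The ranges of Fn1 and Postn were apart in ALI (124 to 187 and 35.8 to 42.5 RPKM) and overlapped in control (30.0 to 76.4 and 34.7 to 50.2 RPKM). Those of Tnc and Cthrc1 were likewise apart in ALI (11.5 to 19.1 and 3.37 to 4.40 RPKM) and overlapped in control (4.05 to 6.89 and 2.58 to 4.37 RPKM). The 9 genes together took 0.482 ± 0.0304% of all counts in ALI and 0.325 ± 0.0710% in control (SD, n = 6 each), and Fn1 and Sparc held 84.3 to 87.3% of these in ALI and 77.9 to 85.7% in control.

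Members were next set against Col1a1, the main fibrillar collagen chain of fibroblasts, and against Pdgfra, a receptor that marks lung fibroblasts, as log2 ratios in each sample. Col1a1 rose 2.93-fold, to 1356 ± 187 CPM in ALI against 463 ± 102 CPM in control, while Pdgfra fell, to 273 ± 60.8 CPM in ALI against 436 ± 113 CPM in control (SD, n = 6 each; edgeR adjusted p = 2.95e-06 and 0.00923). Each of the 18 ratios was tested with an exact permutation test (two-sided, 6 samples a group), and p was adjusted over the 18 by Benjamini-Hochberg.

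Relative to Col1a1, the ratio of Vcan was higher in ALI, and those of Postn, Cthrc1, Sparc and Thbs1 were lower. Because Col1a1 itself rose, a lower ratio here does not mean a lower level of the member. In level, Thbs1 rose, and Postn, Cthrc1 and Sparc did not pass the test. The log2 ratio of Vcan was -5.17 ± 0.24 in ALI and -5.82 ± 0.40 in control, a difference of 0.65 (exact adjusted p = 0.0120). That of Postn was -1.94 ± 0.18 in ALI and -0.28 ± 0.24 in control, a difference of -1.66 (exact adjusted p = 0.00487, no overlap). In linear terms Postn stood at 0.218 to 0.308 times the CPM of Col1a1 in ALI samples and at 0.701 to 1.09 times in control samples. The ratio fell by 1.46 log2 units for Cthrc1 and by 1.32 for Sparc (exact adjusted p = 0.00487 each, no overlap), and by 0.90 for Thbs1 (exact adjusted p = 0.0120). Differences for Tnc (-0.12), Fn1 (-0.23), Thbs2 (-0.41) and Fap (-0.69) did not pass, with exact adjusted p of 0.584, 0.181, 0.144 and 0.144. That of Fap passed without control 3 (-0.90, exact adjusted p = 0.0468) and with a pseudocount of 0.5 CPM (-0.88, exact adjusted p = 0.0260).

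Relative to Pdgfra all 9 ratios were higher in ALI. The differences ran from 0.57 log2 units for Postn (exact adjusted p = 0.0167) and 0.77 for Cthrc1 (exact adjusted p = 0.0120) to 2.11 for Tnc and 2.89 for Vcan (exact adjusted p = 0.00487 each). The exact p of 0.0021645 before adjustment is the smallest that 6 against 6 allows. Because Pdgfra itself fell, a higher ratio here does not mean a higher level of the member.

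**Figure D3:**
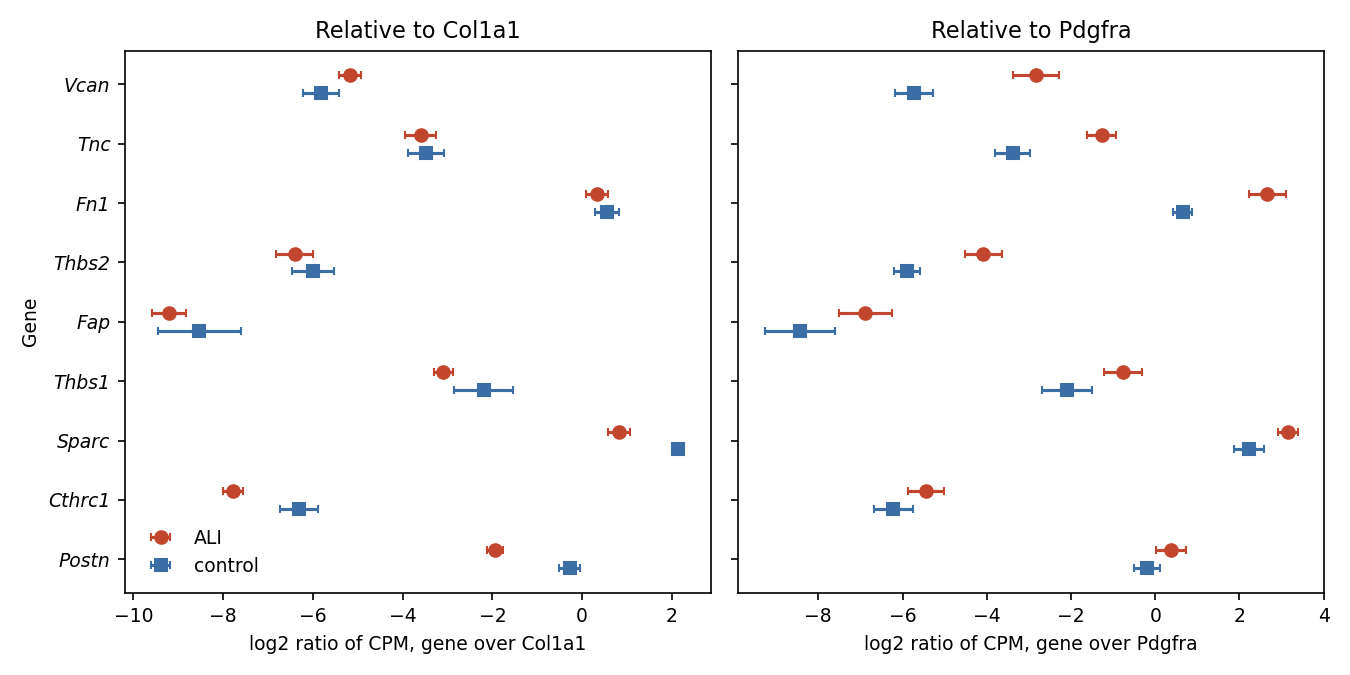
Log2 ratio of CPM of each gene over Col1a1 (left) and over Pdgfra (right), as mean and SD over 6 ALI samples (red circles, upper of each pair) and 6 control samples (blue squares, lower of each pair). Left, the Postn, Cthrc1 and Sparc ratios are lower in ALI and that of Vcan is higher; right, every ratio is higher in ALI.

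Markers of several cell types of the lung differed between the groups, and those of others did not pass or were mixed. Of 10 markers of resident alveolar fibroblasts 9 fell and none rose, with a summed level of 3184 to 6155 CPM in ALI and 6432 to 8476 CPM in control. Of 8 pericyte and smooth muscle markers 7 fell and none rose (531 to 758 CPM in ALI, 854 to 1042 CPM in control). All 10 macrophage markers rose (10539 to 17262 CPM in ALI, 4375 to 4678 CPM in control), and of 5 tested classical monocyte markers, the members Vcan, Fn1 and Thbs1 not counted among them, 3 rose and 1 fell, with all 6 listed summing to 491 to 635 CPM in ALI and 159 to 231 CPM in control. Most of the macrophage sum was Lyz2, with a mean of 12075 CPM in ALI and 4118 CPM in control. The largest part of the monocyte sum was Chil3, with a mean of 344 CPM in ALI and 81.4 CPM in control. The 7 markers of dividing cells all rose (395 to 485 CPM in ALI, 31.3 to 73.6 CPM in control). The 6 mesothelial markers neither rose nor fell (117 to 445 CPM in ALI, 113 to 486 CPM in control). Of 7 tested adventitial fibroblast markers 2 rose and 2 fell, with all 8 summing to 856 to 1240 CPM in ALI and 894 to 1190 CPM in control. Of 9 airway cartilage markers 2 were tested, 1 rose and 1 fell, Matn1 was at 0 in all samples, and the sum was 23.3 to 51.4 CPM in ALI and 60.3 to 73.6 CPM in control. No muscle marker passed the test of 6 tested (sum 21.1 to 285 CPM in ALI and 20.9 to 156 CPM in control), and Myh4 was at 0 in all samples. The part of these cells in the levels of the members was not tested.

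Contractile genes, which give myofibroblasts their name, were mixed. Of 16 tested, 2 rose (Vim and Pdlim7, the second named after its values were seen), 6 fell and 8 did not pass. The median log2 fold change was -0.46. For the marker counts above and the list counts here and below, 18.9% of all genes tested rose and 17.7% fell. The count that rose was 2 in 10 of 19 alternative fits and 1 in the others, including those without control 1, 2 or 4 or ALI 3, 4 or 6, and without ALI 3 the count that fell was 10. Acta2, smooth muscle actin, was at 150 ± 43.6 CPM in ALI and 206 ± 36.0 CPM in control (SD, n = 6 each), a fall with an edgeR adjusted p of 0.0477 that held in 6 of 19 alternative fits and was lost without control 5 (adjusted p = 0.0912) and without control 5 and ALI 2 (adjusted p = 0.156). Des, the muscle intermediate filament desmin, and Lmod1, a regulator of muscle actin filaments, fell by 0.83 and 0.86 log2 units. Vim, the intermediate filament of mesenchymal cells and leukocytes, rose by 1.26, to 2544 ± 220 CPM in ALI against 1063 ± 112 CPM in control. Tagln stood at 2.13 ± 0.396 CPM in ALI and 2.94 ± 0.792 CPM in control, with an adjusted p of 0.116, and of 0.0319 without control 2; 67.9% of its exon bases overlap other genes, so its level is uncertain. Acta2 is also in the list of pericyte and smooth muscle markers, of which 7 of 8 fell, and the part of those cells in the contractile counts was not tested. The 9 genes are therefore called matricellular and matrix genes here, with no cell state read from them.

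Of 21 tested markers of injury fibroblasts in mouse lung, Col1a1 among them, 14 rose and none fell, with a median log2 fold change of 1.07, and Lrrc15 was too rare to be tested. Inhba, which encodes a subunit of activin A, a ligand of the TGF-beta family, rose by 5.57 log2 units, to 81.2 ± 35.3 CPM in ALI against 1.73 ± 0.879 CPM in control. Sfrp1, a secreted Wnt modulator, rose by 2.43, and Timp1, an inhibitor of metalloproteinases, by 2.41. The tested genes that did not pass, named after their values were seen, were Aspn, Col12a1, Ddah1, Fndc1, Itga11, Pdpn and Tnfrsf12a. Which cells made the RNA of this list was not tested.

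Among 20 tested genes listed as other matricellular proteins, 4 rose and 4 fell, with a median log2 fold change of -0.19. The list also holds Ddr2, a collagen receptor, which did not pass the test. The share that rose was 20%, near the 18.9% of all genes tested. Tgfbi, a relative of periostin with the same kind of adhesive repeats, rose by 2.19, to 337 ± 94.9 CPM in ALI against 73.9 ± 5.62 CPM in control. Spp1 (osteopontin) rose by 2.14, and 18.8% of its exon bases overlap another gene. Tnxb, tenascin-X, fell by 1.51, to 79.1 ± 15.5 CPM in ALI against 225 ± 57.4 CPM in control, opposite to Tnc.

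Of 24 receptors of the member proteins, 11 rose and 3 fell, with a median log2 fold change of 0.31. Tlr2, a microbial sensor that also binds versican, rose by 3.17, to 189 ± 74.1 CPM in ALI against 20.9 ± 5.81 CPM in control. Cd44, the hyaluronan receptor, rose by 1.87, to 499 ± 79.6 CPM in ALI against 136 ± 17.0 CPM in control. Itga8, an integrin chain for fibronectin and tenascin that marks alveolar fibroblasts, fell by 1.17. Cd36, a scavenger receptor that binds thrombospondins and was named after its values were seen, fell by 0.91, to 749 ± 65.5 CPM in ALI against 1403 ± 191 CPM in control (SD, n = 6 each; edgeR adjusted p = 8.26e-06). Cd47, which also binds thrombospondins, and Itgb1, the common integrin chain, had log2 changes of -0.09 each and adjusted p of 0.338 and 0.495.

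Of 23 tested partners of versican, hyaluronan and fibronectin, 8 rose and 4 fell, with a median of 0.17. The genes that fell, named after their values were seen, were Bcan (by 1.74 log2 units), Hyal1, Hyal2 and Adamts1. Adamts1, of the same family as Adamts4, was at 141 ± 21.4 CPM in ALI against 188 ± 38.2 CPM in control (edgeR adjusted p = 0.0379). Hmmr, a hyaluronan receptor that is also a spindle protein of dividing cells, rose by 3.22, and Adamts4, a protease that cuts versican, by 3.11, to 4.77 ± 1.27 CPM in ALI against 0.556 ± 0.331 CPM in control. Has2, a hyaluronan synthase, rose by 2.27, to 1.97 ± 0.986 CPM in ALI against 0.402 ± 0.198 CPM in control.

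Among 19 tested relatives of Fap and genes of collagen processing, 8 rose and 6 fell, with a median of 0.16. Mmp14, a membrane metalloproteinase, rose by 2.29, and P4ha3, a subunit of collagen prolyl hydroxylase, by 1.59. Pcolce2, an enhancer of procollagen cleavage, fell by 1.59, to 110 ± 45.0 CPM in ALI against 330 ± 46.7 CPM in control.

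TGF-beta is the best known inducer of several of these genes. Of 22 of its ligands, receptors and targets 7 rose and 7 fell, with a median log2 fold change of -0.0023. Tgfb1 rose by 0.61, to 235 ± 22.4 CPM in ALI against 154 ± 17.9 CPM in control, and Tgfb3, of whose exon bases 12.4% overlap other genes, by 0.71, while Tgfb2 had a log2 change of -0.21 (edgeR adjusted p = 0.226, and 0.0152 without control 5). The receptor gene Tgfbr1 rose by 1.46. Tgfbr3, the co-receptor betaglycan, fell by 1.36, and Ltbp4, which holds latent TGF-beta in elastic matrix, fell by 2.01, to 291 ± 54.0 CPM in ALI against 1171 ± 236 CPM in control.

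**Figure D4:**
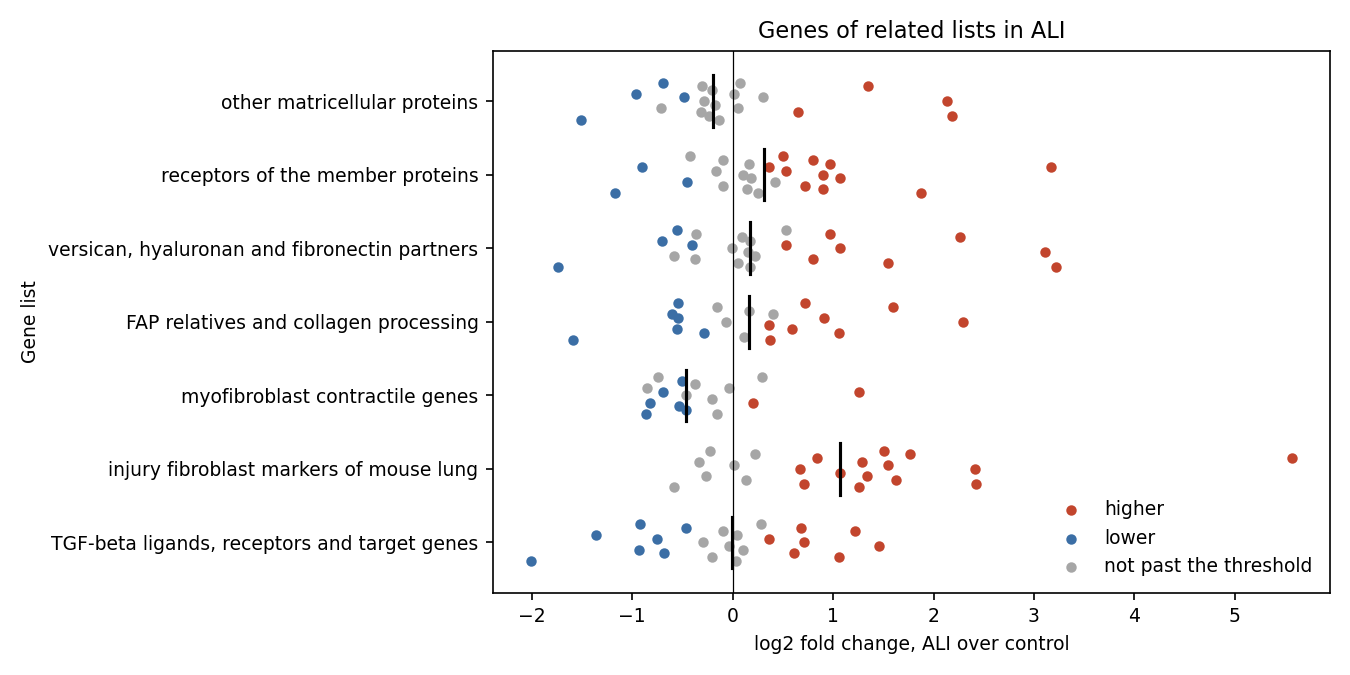
Log2 fold change of ALI over control for the tested genes of 7 related lists, 1 point per gene (red higher, blue lower, grey not past the adjusted p of 0.05), with a black bar at the list median. The injury fibroblast list has its median at 1.07 and the contractile list at -0.46.

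Finally, the genes whose pattern over the 12 samples was nearest to each member were named by the root mean square difference of log2 CPM after each gene was centred on its own mean, with 15246 genes averaging 1 CPM or more as candidates. Nearest to Vcan were Prune2 (0.215 log2 units), Adamts12 (0.244) and Spdl1 (0.270), and nearest to Tnc were Sh2d1b1 (0.219), Fstl1 (0.237) and Dbf4 (0.240). For Fn1 they were Blm (0.135), Veph1 (0.171) and Slc29a3 (0.182), for Thbs2 Steap2 (0.277), Mrc1 (0.285) and Veph1 (0.290), for Thbs1 Mbd4 (0.151), Pik3cd (0.196) and Pi4k2a (0.198), and for Fap Chst10 (0.314) and Enkd1 (0.358). For the members that did not pass the test they were Fip1l1 (0.0582), Ppp1r12a (0.0651) and Rabgap1 (0.0697) for Postn, Phf11d (0.115), Foxn2 (0.122) and Ss18l1 (0.138) for Cthrc1, and Rap2a (0.0983), Qpctl (0.108) and Tram2 (0.111) for Sparc.

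No member was among the 3 genes nearest to another member. The closest pair was Postn and Cthrc1 at 0.198 log2 units, yet Cthrc1 ranked 2491 among the genes nearest to Postn. Fn1 and Tnc were 0.293 apart, where Fn1 ranked 33 from Tnc and Tnc ranked 74 from Fn1, and Fn1 was 0.323 from Thbs2, at rank 18.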

How the data were processed

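Counts per gene in 12 mouse lung samples (6 ALI, 6 control) were analysed. Per the labels' protocols, TRIzol RNA was sequenced on a NovaSeq instrument. The deposited table holds raw gene counts as whole numbers, with the length of each gene. Per the submitters' processing notes, fastp, HISAT2 and featureCounts were used with GRCm38 (mm10); versions, strand setting and treatment of reads matching several genes are not given in the sources used here. Gene IDs were matched to GENCODE M21 for coordinates, since 2.91% of deposited start positions equalled those of GRCm38. The deposited length of all 9 members equalled the M21 exon union, and at most 3.43% of a member's exon bases overlapped another gene.

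Counts were fitted in R 4.3.3 with edgeR 4.0.16 (filterByExpr with minimum count 10, TMM, robust quasi-likelihood F test, no covariate, Benjamini-Hochberg over 16185 genes, threshold 0.05). SE is the log2 change over the root of F. DESeq2 1.42.0 was an alternative. Ratios used a pseudocount of 0.1 CPM and scipy 1.17.1. Depth was 15707937 to 19706494 counts, and intervals rest on the spread between samples. Within groups, no pair of samples agreed within counting error (30 pairs, lowest chi-square over its degrees of freedom 6.91). The members, lists and tests were chosen with earlier results of these data known. Named genes are the members, a fixed set of 11 and up to 3 called genes with the largest change per list, and for each member the 3 genes nearest in pattern, of which 1 is not reported here. The test was tried on simulated counts first. Alternatives were DESeq2, other scalings and filters, the replicate number as a block, another pseudocount and the omission of samples.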

Additional observations from a re-analysis of the deposited data

Results flagged for a closer look

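Of 118 sets of 6 samples checked for 1 value far from the other 5 by Dixon's ratio, 9 were flagged, and chance flags about 5% of sets. No level of a member was among them. Control 5 was flagged for Cd47 (233 CPM, low), Des (230 CPM, high), Dpp4 (123 CPM, low) and Pcolce2 (238 CPM, low). ALI 4 was flagged for Dpp4 (89.2 CPM, low), ALI 3 for Itga8 (321 CPM, high) and control 3 for Lmod1 (10.9 CPM, low). Among the ratios, the log2 ratio of Fn1 over Col1a1 was high in control 6 (1.08), and that of Cthrc1 over Pdgfra was low in control 4 (-7.09).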

How the results depend on the processing

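Over 19 alternative fits of the counts and 15 of the ratios, no value reversed its direction among the 9 members, the ratios and the genes named from the lists by the rule above. The calls of Vcan, Tnc, Fn1, Thbs2 and Thbs1 held in all 19, and Postn, Cthrc1 and Sparc passed in none. Members that rose numbered 5 or 6 and members that fell 0. Over all genes, 4822 (with the replicate number as a block) to 7223 (without control 5) passed. The labels do not say whether the replicate numbers pair the samples. Deviations of same-numbered samples correlated from -0.27 to 0.27, which cannot decide it, and under the replicate block 4822 genes passed. Under the block, the differences relative to Pdgfra were 0.57 for Postn and 0.77 for Cthrc1, with an exact sign-flip adjusted p of 0.0804 each; the cause was not tested. With a pseudocount of 0.5 CPM, the difference of Fap relative to Col1a1 was -0.88 and passed (exact adjusted p = 0.0260), and leaving out 1 sample at a time gave -0.90 to -0.41, which also passed without control 3 (-0.90, exact adjusted p = 0.0468). Risen contractile genes numbered 1 with library size alone, with no filter and under the block; leaving out 1 sample at a time gave 1 to 2 risen and 5 to 10 fallen, with 10 without ALI 3. Fallen injury fibroblast markers numbered 1 without control 5 and ALI 2, and 0 to 1 with 1 sample left out (1 without control 5 and without ALI 3). Depth limits Fap most, at 10 to 61 counts a sample.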
